A study of Homo sapiens with 3 samples.

Results

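The cells described here are 1909 trefoil-high Caco-2 cells, chosen because they held the largest share of transcripts from 4 genes, S100A9, CCL20, TFF1 and TFF2, among 12734 Caco-2-side cells and 15560 kept cells in all. They come from a co-culture of the colorectal cancer lines Caco-2, which forms an absorptive monolayer, and HT29, which can form mucus-secreting cells, seeded on Transwell inserts at 9 parts Caco-2 (passage 8) to 1 part HT29 (passage 13). Single-cell RNA was counted as unique molecular identifiers (UMIs) per gene with a 10x Genomics 3′ assay in 3 libraries, all harvested on day 23. Control 1 and control 2 were untreated. The third library, called LPS, was given the bacterial cell wall component lipopolysaccharide at 1 ng/ml from day 22 for 24 h. The libraries held 33893707, 27934953 and 24185467 UMIs. Wherever 3 values follow each other below, they are those of control 1, control 2 and LPS, in that order.

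A barcode was kept with at least 1500 UMIs, at least 700 genes and at most 20% mitochondrial UMIs. It was called Caco-2-side when under 0.1% of its UMIs came from 8 genes of the HT29 side of the culture (LYZ, KRT20, LCN2, CD24, CD44, CST6, TCN1 and BMP4), and HT29-side otherwise. This limit sorts cells by RNA, not by genotype. The top 15% of each library on the 4-gene share were the trefoil-high cells, 643, 632 and 634 of them, and the other 3646, 3584 and 3595 Caco-2-side cells were the comparison. The 4 genes therefore differ by choice, and their levels are given as a description with no test. The limit fell on a continuous range: the lowest chosen cell had 0.1559%, 0.09634% and 0.1031% of its UMIs on the 4 genes, and the highest cell not chosen 0.1553%, 0.09622% and 0.1027%.

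Trefoil factors are small, tightly folded secreted peptides that mucous cells release with mucins, and they help an injured epithelium to close. TFF1 and TFF2 belong mainly to the stomach and TFF3 to the goblet cells of the intestine. S100A9 is a calcium-binding protein that usually pairs with S100A8, and CCL20 is the chemokine ligand of the receptor CCR6. Enterocytes, the absorptive cells of the gut, mature as they leave the crypt and lose its stem cell and proliferation genes.

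The name given to these cells beforehand put CCL20 and S100A9 first, and the counts went against it. TFF1 and TFF2 together gave 93.3%, 93.4% and 95.1% of the 4 genes' UMIs in the chosen cells. A UMI of S100A9 was present in 13.1% of them in control 1 (exact 95% interval 10.6 to 15.9), 15.5% in control 2 (12.8 to 18.6) and 12.9% in LPS (10.4 to 15.8). CCL20 was present in 18.2% (15.3 to 21.4), 8.54% (6.48 to 11) and 5.36% (3.74 to 7.41). Neither was present in 71.5%, 77.8% and 82.2% of the chosen cells. Such intervals cover counting error only. For comparison, S100A9 was present in 4.22%, 2.46% and 2.42% of the other Caco-2-side cells, which the rule left low, and in 1.74%, 1.37% and 1.40% of HT29-side cells. CCL20 was present in 5.32%, 2.20% and 2.31% and in 3.11%, 1.74% and 1.61%. Median UMIs per HT29-side cell were 5519.5, 3868 and 3840.0. The cells are called trefoil-high from here on.

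**Figure D1:**
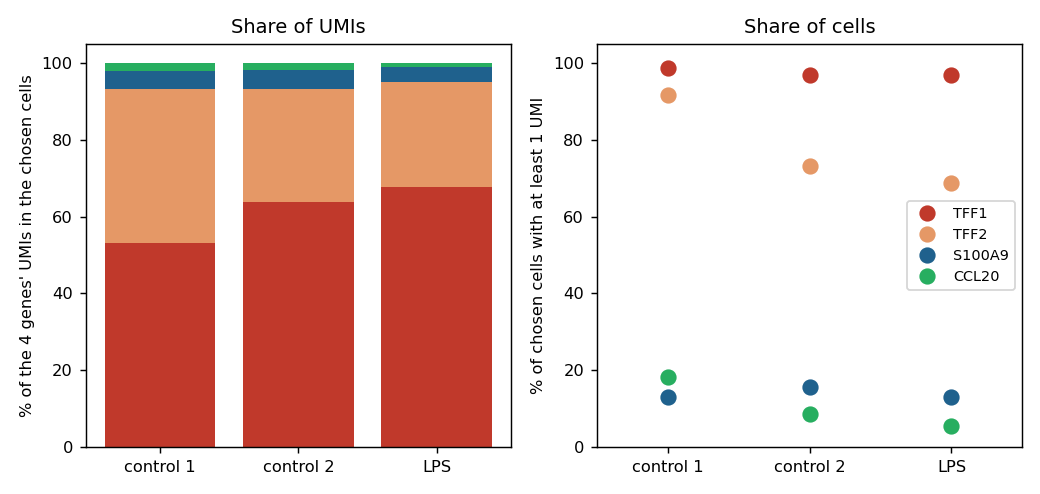
Left, stacked bars give each gene's percent of the 4 genes' UMIs in the trefoil-high cells of each library. Right, points give the percent of those cells with at least 1 UMI. TFF1 gives 53.1%, 63.7% and 67.7% of the UMIs, while S100A9 and CCL20 stay under 5% each.

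S100A9 and CCL20 were also unevenly spread among the trefoil-high cells. The 10% of cells richest in S100A9 held 97.1%, 90.8% and 92.4% of its UMIs, with up to 170 UMIs in 1 cell. For TFF1 the richest 10% held 29.2%, 31.5% and 29.8%. Most trefoil-high cells carried TFF1 and TFF2 together, 90.8% in control 1, 70.9% in control 2 and 67.5% in LPS. S100A9 and CCL20 met in the same cell in 18, 12 and 3 cases.

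The promoters of S100A9 and CCL20 are shown because these genes named the cells but appear in few of them. They are the 250 bases before the start site from RefSeq, build GRCh38.p14, both on the plus strand, at chr1:153357604-153357853 for S100A9 and chr2:227813592-227813841 for CCL20. Capitals mark the TATA box TATAAA and a loose NF-kB pattern (GGG and CC with 5 bases of any kind between them), searched on both strands, and overlapping matches run together. ACGTG, the core of hypoxia response elements, was searched too and was in neither.
S100A9: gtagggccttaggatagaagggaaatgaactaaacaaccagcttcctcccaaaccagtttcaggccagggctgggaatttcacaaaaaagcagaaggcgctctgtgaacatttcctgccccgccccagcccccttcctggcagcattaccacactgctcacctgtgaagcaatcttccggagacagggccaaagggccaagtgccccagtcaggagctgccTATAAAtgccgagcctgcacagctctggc
CCL20: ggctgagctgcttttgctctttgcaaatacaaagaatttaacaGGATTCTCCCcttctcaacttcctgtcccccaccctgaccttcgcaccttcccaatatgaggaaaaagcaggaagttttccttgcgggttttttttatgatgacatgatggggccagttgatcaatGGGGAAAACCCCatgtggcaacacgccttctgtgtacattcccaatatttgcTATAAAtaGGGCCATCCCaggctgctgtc
Both hold a TATA box, which is in 11.5% of 35116 promoter windows of 300 bases. The loose NF-kB pattern occurs in CCL20 and not in S100A9, and it is in 58.7% of all windows. ACGTG is in 21.4%. The table used held no entry for TFF1, TFF2 or TFF3.

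Counts were summed over the cells of each group in each library and scaled to counts per 1000000 UMIs (CPM). TFF1 stood at 1886, 1495 and 1581 CPM in the trefoil-high cells and at 193, 115 and 124 CPM in the other Caco-2-side cells. TFF2 was at 1428, 698 and 639 CPM against 133, 50.2 and 43.6 CPM. Control 1 held the most of both genes in either group, and its TFF2 stood far above that of the other libraries. S100A9 was at 164, 114 and 89.8 CPM against 11.2, 5.81 and 8.44 CPM, and CCL20 at 72.8, 41.1 and 24.8 CPM against 11.9, 5.43 and 6.44 CPM. HT29-side cells, where these genes were not selected, had 178, 109 and 130.2 CPM of TFF1. S100A8, the usual partner of S100A9, had no UMI in any trefoil-high cell, and neither had S100A12 or the leukocyte gene PTPRC. None in 10294069 UMIs allows up to 0.291 CPM (3 counts). The epithelial gene EPCAM was at 651, 708 and 675 CPM against 623, 656 and 646 CPM, a small rise of 0.23 (SE 0.04, edgeR adjusted p = 2.67e-05).

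**Figure D2:**
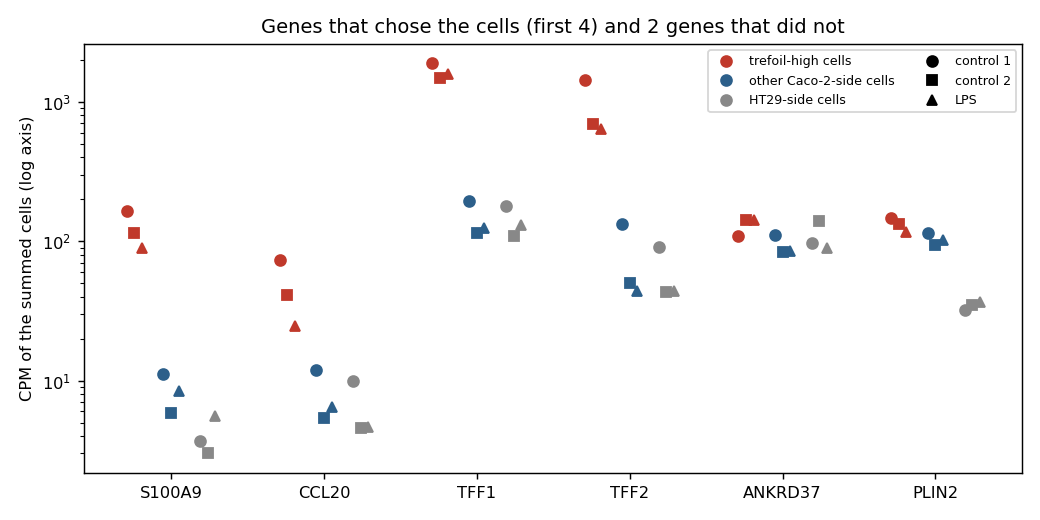
CPM on a log axis for the 4 genes that chose the cells and for ANKRD37 and PLIN2, which did not. Each point is 1 library (shape) and 1 group of cells (colour). The 4 genes are separated by choice, while ANKRD37 overlaps between groups, with 109 CPM in the trefoil-high cells of control 1 and 110.0 CPM in the other cells there.

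Depth and cell quality were compared between the groups. Median UMIs per cell were 5638, 4285.5 and 3784.5 in trefoil-high cells and 5455.5, 4271.5 and 3613 in the other Caco-2-side cells. The median mitochondrial share was 3.90%, 4.46% and 4.80% against 3.68%, 4.26% and 4.54%. Among the 6% of cells with the highest doublet score were 3.89%, 3.32% and 5.21% of the trefoil-high cells, fewer than the 5.49%, 5.78% and 5.76% of the others. The libraries shared 9, 9 and 11 barcode sequences pairwise, and none belonged to 2 trefoil-high cells.

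Whether the 4 genes go together was tested by choosing cells on 3 genes and measuring the one left out. Each left-out gene was higher in the cells chosen by the other genes. TFF2 was at 1217, 594 and 539 CPM against 165, 70.4 and 62.2 CPM, a log2 difference of 3.16 (SE 0.04, edgeR adjusted p = 6.42e-43). TFF1 differed by 2.49 (SE 0.04, edgeR adjusted p = 4.77e-39). S100A9 was at 102, 61.3 and 49.3 CPM against 22.0, 15.4 and 15.7 CPM, a difference of 2.18 (SE 0.09, edgeR adjusted p = 5.65e-18). CCL20 differed least, by 1.33 (SE 0.14, edgeR adjusted p = 1.47e-08), at 46.6, 19.3 and 11.1 CPM against 16.5, 9.39 and 8.89 CPM. The gap was narrowest in LPS. Without control 1 the CCL20 difference was 0.88. The share of all genes called higher in these fits was 18.1% (TFF2), 14% (TFF1), 17.9% (S100A9) and 17.8% (CCL20).

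Across 13511 tested genes, with the 12 genes of the rule left out, 2369 (17.5%) were higher and 1776 (13.1%) lower in trefoil-high cells by edgeR's quasi-likelihood test at a Benjamini-Hochberg adjusted p under 0.05, with the library as a block. The median log2 difference over all genes was -0.02. All log2 differences below come from that fit unless stated, and CPM values carry no scaling factor. Without the TMM factor the median was -0.17 and 28.8% of the calls were higher instead of 57.2%, so differences below about that size depend on the scaling. DESeq2 called 2028 genes, cells thinned to 1500 UMIs gave 1778 and a fit without the library block 1911, against 4145. The libraries are separate samples, and the study's methods describe several Transwells of the same lines without tying each to a library. With the library as a block, a p measures how the difference between groups varies across these 3, a spread that may be technical.

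TFF3, the intestinal trefoil factor, was the most abundant of the large rises and was not used in the choice. It stood at 2558, 2289 and 2070.0 CPM in trefoil-high cells and 982, 721 and 579.7 CPM in the others, a difference of 1.77 (SE 0.05, edgeR adjusted p = 5.74e-18). At 1500 UMIs a cell, it was detected in 81.2%, 74.2% and 73.7% of trefoil-high cells, in 51.6%, 42.3% and 39.4% of the others and in 25.5%, 26.3% and 29.3% of HT29-side cells. TFF3 lies next to TFF2 and TFF1 on chromosome 21 (GRCh38, GENCODE v44: TFF3 at chr21:42311667-42315409, TFF2 at chr21:42346357-42350997 and TFF1 at chr21:42362282-42366535, all on the minus strand). Of the other genes within 500000 bases of TFF1, SLC37A1, a sugar phosphate transporter, was higher by 0.74 (SE 0.27, edgeR adjusted p = 0.0410), C2CD2 and WDR4 were lower by edgeR and the rest of those tested did not pass. TMPRSS3, the nearest gene to TFF1, was too low to test, at 0.539 CPM on average in trefoil-high cells.

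The largest rises were in genes of varied roles. CP, the copper-carrying ferroxidase ceruloplasmin, was at 70.6, 45.0 and 58.9 CPM against 18.6, 10.4 and 11.5 CPM, a difference of 2.25 (SE 0.09, edgeR adjusted p = 1.24e-14). GUCA2A, which encodes the gut peptide guanylin, was at 125, 62.1 and 78.3 CPM against 34.1, 18.8 and 21.8 CPM, a difference of 1.98 (SE 0.07, edgeR adjusted p = 1.04e-15). The groups did not overlap for either gene.

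RNF186, a ubiquitin ligase of the gut epithelium, was higher by 2.00, the sulfotransferase SULT1B1 by 1.93, and the uncharacterised C11orf86 by 1.89. FABP2, the intestinal fatty acid binding protein, was higher by 1.84, the death ligand TNFSF10 by 1.81, the phosphatase PTPRR by 1.80, the membrane mucin MUC17 by 1.70 and the brush border myosin MYO7B by 1.70. TNFSF10 was the steadiest of these, at 31.1, 32.7 and 32.3 CPM against 10.5, 9.23 and 10.8 CPM. LCT, the lactase of the brush border, fell under the level set for naming (20 CPM) but differed more, by 2.79 (SE 0.23, edgeR adjusted p = 2.70e-09), at 9.82, 16.8 and 9.69 CPM against 2.02, 1.63 and 2.13 CPM. LCT was picked after its values were seen.

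The 12 largest falls included a Wnt inhibitor and a YAP target. DKK1, a secreted inhibitor of Wnt signalling, was at 2.39, 15.6 and 5.74 CPM against 74.1, 67.9 and 73.5 CPM, and it fell by 3.09 on the log2 scale (SE 0.21, edgeR adjusted p = 6.01e-11). The YAP target ANKRD1 was at 3.11, 17.1 and 12.2 CPM against 46.4, 71.0 and 57.0 CPM. Trefoil-high cells of control 2 held the most of both, and they still lay below every comparison value. Without control 2 the DKK1 difference was -4.14. Set against the APOA4-high cells described below, DKK1 did not pass (-0.65, SE 0.37). It was at 3.07, 18.2 and 6.28 CPM against 17.9, 7.33 and 12.3 CPM there. Against the GNRH2-high cells described below it was lower by 1.20 (SE 0.26).

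Also lower were the adhesion gene CADM1 (-2.44), the amino acid transaminase BCAT1 (-2.31), PAGE4 (-2.18), the membrane protein gene BASP1 (-2.15), ITIH2 (-2.09) and the actin-binding TAGLN (-2.07). The long noncoding RNA CRNDE (-1.85), IGDCC3 (-1.81) and the titin gene TTN (-1.79) followed. PRSS2, a trypsinogen, fell by 1.99, but its reads can be shared with near-identical trypsinogen copies. The difference was -0.87 without control 1 and -2.63 without control 2. PRSS2 was at 3.11, 7.20 and 5.39 CPM against 38.6, 12.2 and 13.7 CPM, and it stood at 210, 78.6 and 100 CPM in HT29-side cells.

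**Figure D3:**
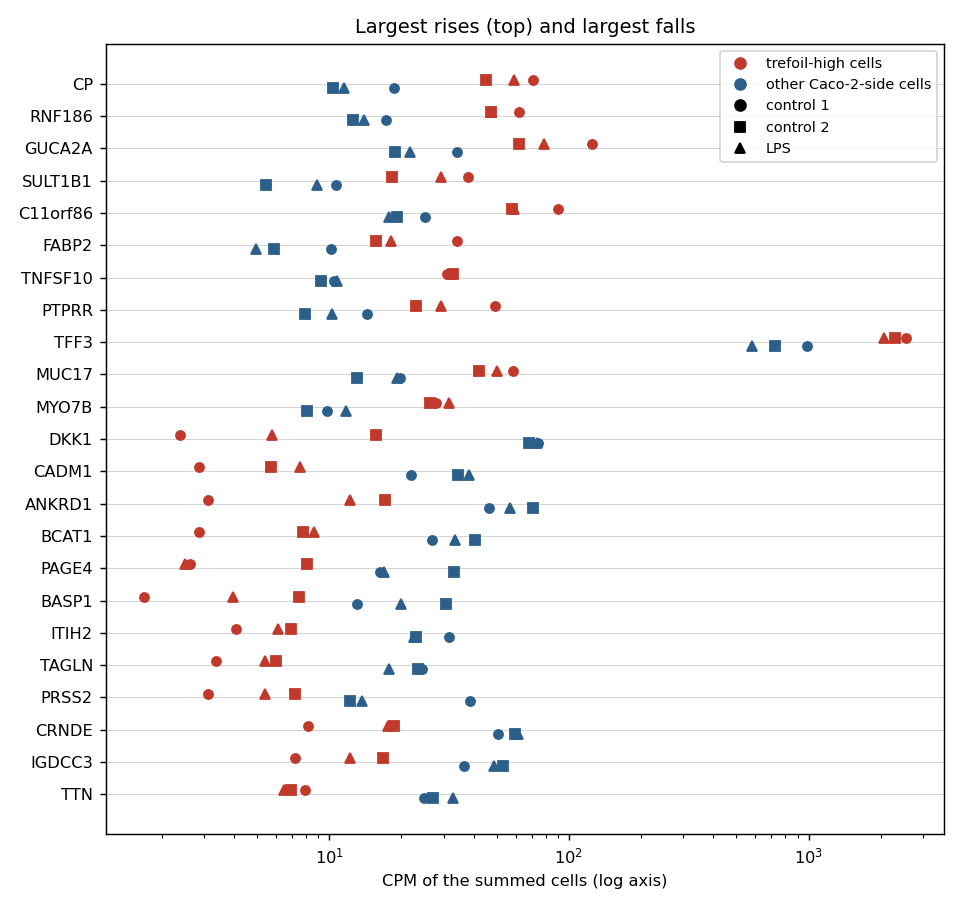
CPM on a log axis for 11 of the largest rises and the 12 largest falls, 1 point for each library (shape) in trefoil-high (red) and other Caco-2-side cells (blue). For DKK1 all 3 red points lie at or under 15.6 CPM and all blue points at or above 67.9 CPM.

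The enterocyte list gave the highest median of the 28 gene lists. Of its 25 tested genes, 23 were higher and none lower, with a median of 1.19 against -0.02 for all genes. APOA4, an apolipoprotein of chylomicrons, was at 3423, 2716 and 2745 CPM against 1174, 848 and 1066 CPM, a difference of 1.68 (SE 0.04). MTTP, which loads lipid onto apolipoprotein B, was at 307, 257 and 298 CPM against 136, 99.7 and 117 CPM. SI, the sucrase-isomaltase, was one that did not pass, at 16.3, 11.7 and 14 CPM against 18.1, 13.8 and 14.1 CPM, and TREH, the trehalase, was the other.

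Genes of lipid droplets and fatty acid use were higher in 19 of 28 tested members and lower in none (median 0.62). FABP1, the liver-type fatty acid binding protein, was at 5482, 4633 and 4117 CPM against 2121, 1893 and 1823 CPM. CPT1A, which brings fatty acids into mitochondria, was at 13.4, 11.1 and 15.4 CPM against 6.56, 6.57 and 7.60 CPM. MOGAT2, an acyltransferase of triglyceride synthesis, was higher by 1.70 and DGAT1 by 0.64. PLIN2, a droplet coat protein named with these cells beforehand, was at 146, 133 and 117 CPM against 114, 93.4 and 102 CPM, a difference of 0.51 (SE 0.06, edgeR adjusted p = 4.72e-07). HT29-side cells had 32.2, 35.0 and 36.9 CPM of PLIN2. Cholesterol and fatty acid synthesis genes were mixed, with 9 higher and 7 lower of 29 (median 0.05). The sterol reductase DHCR7 was higher by 0.47, and the desaturase FADS1 fell by 0.51.

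Hypoxia targets were higher in 18 of 32 members and lower in 1 (median 0.41). CA12, a carbonic anhydrase, was at 30.6, 34.2 and 37.7 CPM against 11.1, 13.0 and 13.8 CPM, a difference of 1.59 (SE 0.10). LOX, the collagen cross-linking oxidase, was higher by 1.22 and the disulfide oxidase ERO1A by 0.85. VEGFA, the vascular growth factor, was at 153, 155 and 185 CPM against 173, 172 and 202 CPM and did not pass, and DDIT4 fell by 0.41. ANKRD37, the other gene named with these cells beforehand and a hypoxia target, was at 109, 141 and 141 CPM against 110.0, 83.7 and 85.2 CPM. Its fitted difference was 0.62 (SE 0.09, edgeR adjusted p = 1.07e-05), but control 1 did not show it in CPM.

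Glycolysis genes were higher in 15 of 19 (median 0.45) and lower in 1. LDHA, the lactate-forming dehydrogenase subunit, was at 1469, 1377 and 1185 CPM against 1152, 939 and 868 CPM. LDHB, its counterpart, was the one that fell, by 0.34. Of the 13 respiratory chain genes coded by mitochondrial DNA, 12 were higher, but the median was only 0.20. That list depended on the fit, with 5 higher and 1 lower without a scaling factor and 1 higher without the library block.

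S100 genes other than S100A9 were higher in 9 of 11 tested members and lower in none (median 0.65). S100A6 was at 3555, 3355 and 3168 CPM against 1969.7, 1891 and 1708 CPM, a difference of 1.01 (SE 0.03). S100P was higher by 0.76 and S100G, a calcium carrier of enterocytes that is also on the enterocyte list, by 1.19. S100A11 (0.07) and S100A13 (-0.04) did not pass. The list did not lean this way against the groups described below, with 4 higher and 3 lower of 11 against APOA4-high cells (median 0.09) and 3 in each direction against GNRH2-high cells (median 0.01). S100A10 was called higher by 0.18, while its CPM was higher in 2 of 3 libraries.

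NF-kB targets are the group to which CCL20 belongs. Of 22 tested members, 6 were higher and 2 lower (27.3% and 9.09%), against 17.5% and 13.1% of all genes. Whether the list differs from all genes was not tested. Its median was 0.09, which was 0.20 without control 1 and turned to -0.06 without a scaling factor. Against the APOA4-high cells described below, 2 were higher and 6 lower of 17 (median -0.05), where 13.9% and 13.8% of all genes were. Against GNRH2-high cells 2 were higher and none lower of 16 (median 0.12), where 4.11% and 3.93% of all genes were. The chemokine CCL15 was at 52.2, 42.3 and 20.8 CPM against 18.9, 13.2 and 11.1 CPM, a difference of 1.58 (SE 0.11). Complement C3 was higher by 1.32, the cytokine IL32 by 0.85, the chemokine CXCL2 by 0.66, CXCL16 by 0.61 and the adhesion receptor ICAM1 by 0.49. The feedback inhibitor NFKBIA was at 31.1, 32.4 and 29.4 CPM against 37.8, 39.8 and 33.3 CPM and did not pass. NFKBIZ fell by 0.30 and NFKB1 by 0.51, but no gene of the list was lower without control 2, with DESeq2 or without the library block, and 1 was without control 1 or without LPS. Of 20 tested receptors and adaptors upstream of NF-kB, 2 were higher (IL22RA1 and IRAK1) and 1 lower (CD14). Without control 2 or without LPS, 1 was higher and none lower. CD14 had 13 UMIs in trefoil-high cells against 166 in the others, so it was tested only through its level in the others.

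Mucous and gastric genes gave 6 higher and 2 lower of 17 (median 0.31), with a median of 0.55 without control 1, 0.20 without control 2 and 0.17 without a scaling factor (5 higher and 4 lower). After TFF3 and MUC17 came the membrane mucin MUC13 at 59.6, 57.6 and 65.7 CPM against 31.9, 28.5 and 34.7 CPM, a difference of 1.09. The gel-forming mucin MUC5AC was called higher by 0.78 on low counts, 4.07, 15.3 and 8.62 CPM against 4.29, 7.38 and 5.80 CPM, and MUC2 did not pass. The gastric surface genes GKN1 and GKN2 had no UMI in either group of Caco-2-side cells. SOX2, a transcription factor of the foregut and of stem cells, fell by 2.27, and FOXA1 by 0.70.

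Mucosal defence genes were split, with 3 higher and 3 lower of 10, or 5 higher and 4 lower of 12 without control 1 and 3 higher and 5 lower without a scaling factor. PI3, the protease inhibitor elafin, was at 116, 107 and 67.1 CPM against 61.6, 44.2 and 37.2 CPM. DUOX2, an oxidase that makes hydrogen peroxide, was higher by 1.95 from low levels. PLA2G2A, a secreted phospholipase, was at 5.03, 32.7 and 25.1 CPM against 56.5, 65.6 and 67.8 CPM, a fall that was steepest in control 1. Interferon and MHC class I genes were higher in 10 and lower in 3 of 26 (median 0.23). IFI27 was at 153, 249 and 131 CPM against 57.9, 67.0 and 58.1 CPM, B2M was higher by 0.65, and the antiviral membrane gene IFITM3 fell by 2.39 from low levels. Tight junction genes were higher in 11 and lower in 1 of 17 (median 0.33). The myosin kinase MYLK was higher by 1.04, the pore-forming claudin CLDN2 by 1.17 from low levels, and the scaffold TJP1 was lower (-0.44). Without the library block 4 were higher and 1 lower, and in thinned cells 4 of 15 were higher and none lower. Against the APOA4-high cells described below, 2 were higher and 5 lower of 15 (median -0.20). Against GNRH2-high cells 1 was higher and none lower of 16 (median -0.01).

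**Figure D4:**
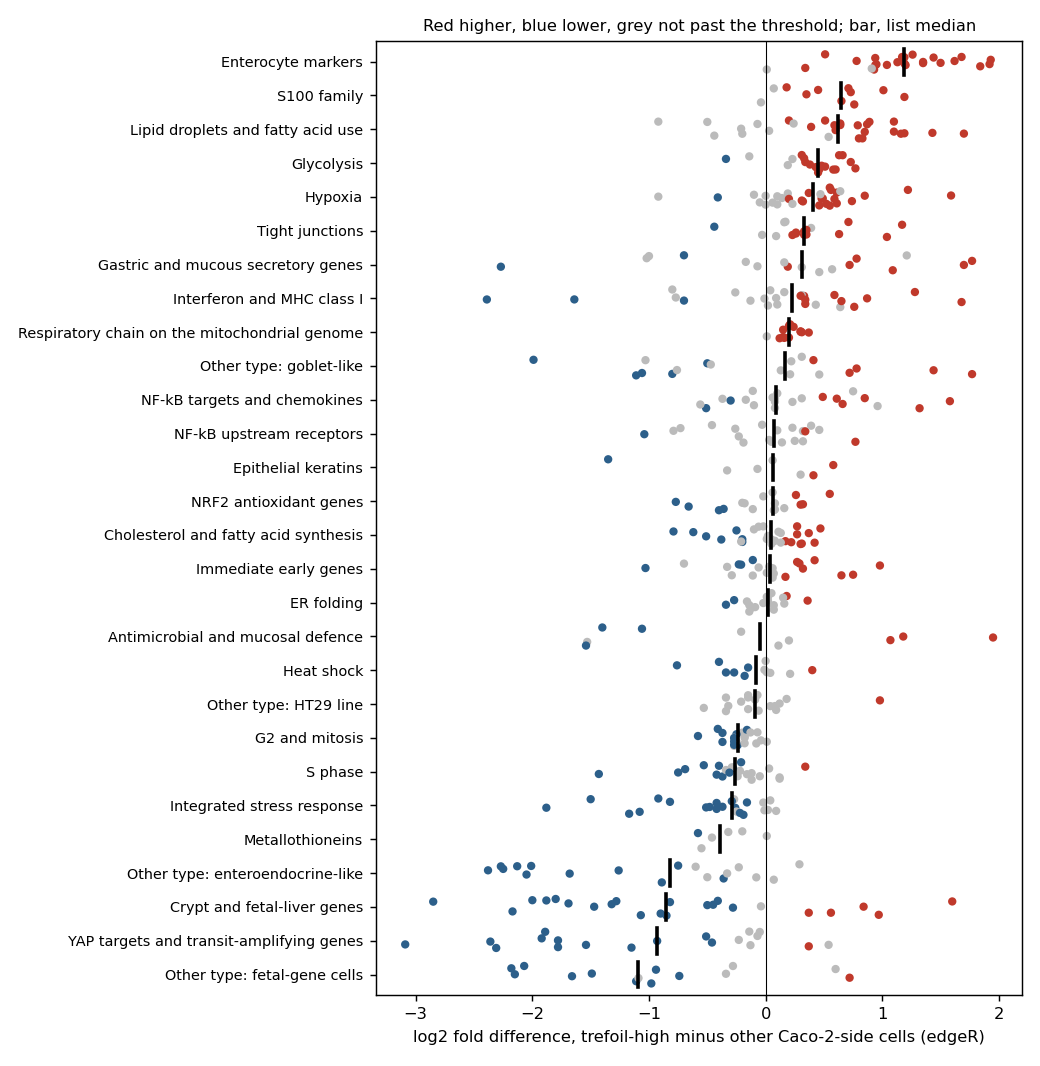
Each point is 1 tested gene of a list, placed by its log2 difference between trefoil-high and other Caco-2-side cells. Red points were called higher, blue lower and grey neither. Lists are ordered by their median (black bar), from the enterocyte list at 1.19 to the fetal-gene list at -1.09. FABP7 is not drawn, since it had no UMI in trefoil-high cells.

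Crypt and fetal-liver genes parted within their list: 17 of 23 were lower and 5 higher (median -0.85). LGR5, the Wnt-driven stem cell receptor, was at 0.718, 0.300 and 1.08 CPM against 6.69, 4.45 and 5.16 CPM, a fall that rests on low counts. A UMI of LGR5 was present in 0.467%, 0.158% and 0.473% of trefoil-high cells, so it was tested only through its level in the others. Of the plasma protein genes, ALB fell by 0.82 and FGG by 1.69. The 5 higher ones were plasma protein genes too. TTR, a thyroid hormone carrier, was at 1031, 706 and 709 CPM against 324, 276 and 284 CPM, VTN was higher by 0.97, AFP by 0.84, AHSG by 0.56 and SERPINA1 by 0.37. YAP targets and genes of the DKK1 and ANKRD1 high cells were lower in 12 of 19 and higher in 1, AMOTL1 (median -0.93). Against the APOA4-high cells described below, that list had 3 higher and 1 lower of 13 (median 0.04). Against GNRH2-high cells it had 1 higher and 3 lower of 14 (median -0.20). CCN1 was at 14.1, 20.7 and 12.6 CPM against 32.1, 43.6 and 43.1 CPM.

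Cell cycle genes were lower in part. Of 22 S phase genes, 10 were lower and 1, RRM2, higher (median -0.26), and of 22 G2 and mitosis genes 10 were lower and none higher (median -0.24). CENPF was at 85.9, 123 and 108 CPM against 165, 195 and 162 CPM, while MKI67 did not pass, at 58.9, 69.6 and 70.7 CPM against 75.5, 75.3 and 74.3 CPM. DESeq2 called 2 S phase genes lower and none higher, and 3 mitosis genes lower. Without control 1 the mitosis list had 3 lower (median -0.12) and the S phase list 6, and without control 2 the S phase list had 6. Without a scaling factor 20 mitosis and 16 S phase genes were lower, and without the library block 2 of each. Targets of the integrated stress response were lower in 16 of 23 and higher in none (median -0.29). ASNS, the asparagine synthetase, was at 9.10, 18.6 and 26.2 CPM against 36.1, 46.1 and 45.5 CPM, and MTHFD2 of mitochondrial folate metabolism fell by 0.82.

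Heat shock genes were lower in 6 and higher in 1 of 12 (median -0.08). Their sum was 3541, 3650.4 and 3542 CPM against 4526, 4552 and 4331 CPM, lower in each library. ER folding genes gave 2 in each direction of 18, metallothioneins 1 lower of 6 (median -0.39), NRF2 antioxidant genes 4 in each direction of 17 and epithelial keratins 2 higher and 1 lower of 7. For comparison, 17.5% of all genes were higher and 13.1% lower. These small counts shifted with the scaling and the libraries. Without a scaling factor ER folding genes had none higher and 9 lower, NRF2 genes 1 higher and 8 lower, metallothioneins 3 lower, and cholesterol and fatty acid synthesis genes 7 higher and 11 lower of 29 (median -0.10). The heat shock median was -0.15 without control 1, -0.04 without control 2 (none higher, 5 lower) and -0.23 without a scaling factor. Without control 1, 2 NRF2 genes were higher, and keratins had 3 higher and none lower of 8. Without LPS keratins had 2 higher and 3 lower of 9 (median -0.22), and without control 2 1 higher and none lower of 6. Of the metallothioneins 2 were lower without control 2, and none without control 1 or without LPS (median -0.20 without LPS). Of the ER folding genes 1 was higher without any 1 of the libraries, and 1 lower without control 2. Immediate early genes were higher in 8 and lower in 4 of 22 (median 0.04), with 2 lower without control 1, 1 lower without control 2 and a median of -0.10 without a scaling factor. DUSP6, a phosphatase that limits ERK signalling, was at 121, 161 and 155 CPM against 69.2, 80.8 and 97.6 CPM, and KLF6 was higher by 0.65.

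Markers of other cell types were checked next. Of 17 tested genes of the HT29 line, 1 was higher, TSPAN8, which alone had 363 CPM on average and is the most abundant of that list. The median of the list was -0.09, and it was 0.12 without LPS and -0.29 without control 2. The list summed to 576, 406 and 348 CPM against 375, 287 and 239 CPM in the other Caco-2-side cells and 3896, 3578 and 3693 CPM in HT29-side cells. Goblet-like markers gave 5 higher (TFF3, GUCA2B, MUC5AC, FCGBP and BCAS1) and 5 lower of 18 (median 0.17). The median was -0.25 without control 2, and without a scaling factor 4 were higher and 7 lower. Their sum was 2776, 2677 and 2372 CPM against 1319, 1126 and 904 CPM, of which TFF3 made up 2306 CPM on average. Enteroendocrine-like markers were lower in 11 of 18 and higher in none (median -0.82, or -1.29 without LPS). CHGA was at 0 UMIs, and the list summed to 420.1, 408 and 433 CPM against 642, 668 and 616 CPM. SOX4 was the most abundant gene of the list. The enteroendocrine gene CHGB had 3 UMIs in trefoil-high cells against 79 in the others, so it was tested only through its level in the others. Fetal-gene markers were called lower in 10 of 15, some of which were tested only through their level in the other cells. The 1 called higher was TFAP2C. Without control 2, 6 were lower and 2 higher, and without LPS 13 of 17 were lower and none higher. DESeq2 also called none higher. The sums of the list were 47.9, 66.6 and 67.1 CPM against 116, 192 and 113 CPM. GATA3 was the most abundant at 12.8 CPM, and PTN, XAGE2 and FABP7 were at 0 UMIs. FABP7 was at 4.82 CPM in the pooled other cells, at least 16.5-fold higher than 3 counts in all trefoil-high cells would give. The part of other cell types in the results was not tested.

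The trefoil-high cells were then set beside 5 other groups of the same size chosen from the same Caco-2-side cells as the top 15% on other genes: APOA4, APOC3 and FABP2 (APOA4-high), GNRH2, SLC11A2 with APOB, DKK1 with ANKRD1, and AFP, ALB and FGG (fetal-liver-gene). In control 1, 31.9% of trefoil-high cells (exact 95% interval 28.3 to 35.6) were also APOA4-high, in control 2 29.7% (26.2 to 33.5) and in LPS 26.7% (23.3 to 30.3), against 12%, 12.4% and 12.9% of the other Caco-2-side cells. GNRH2-high cells made up 28.6%, 30.5% and 28.1% against 12.6%, 12.2% and 12.7%. SLC11A2 and APOB high cells made up 24.9%, 23.6% and 23.2% against 13.2%, 13.5% and 13.5%. DKK1 and ANKRD1 high cells made up 5.13%, 6.49% and 5.99% against 16.7%, 16.5% and 16.6%, although 121 cells of that group in control 1 and 10 in LPS carried no UMI of its genes and were ties. In none of the 5 groups were 36.5%, 37.2% and 41.8% of the trefoil-high cells, against 49.9%, 49.5% and 51.2% of the others. The share of fetal-liver-gene cells, 18.8%, 15% and 16.9%, stood against 14.3%, 15% and 14.7% of the other cells.

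**Figure D5:**
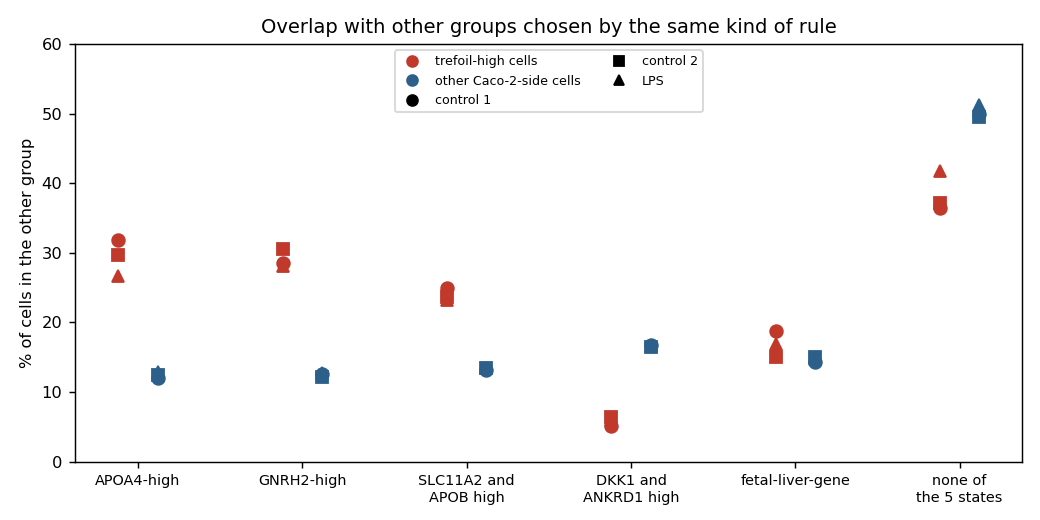
Percent of trefoil-high (red) and other Caco-2-side cells (blue) that also belong to each of 5 other chosen groups or to none, 1 point for each library (shape). The APOA4-high share is 26.7% to 31.9% in red and 12% to 12.9% in blue.

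Leaving out the APOA4-high cells from both sides, a choice made after the values were seen, 1872 genes were higher and 1291 lower of 13206, and 2981 of the 4145 calls were called again in the same direction and none in the opposite one. The enterocyte list then gave 22 higher and none lower (median 1.18). The mitosis list then had 2 higher and 1 lower (median -0.01), and the S phase list 1 higher and 3 lower (median -0.11).

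Trefoil-high cells outside the APOA4-high group (438, 444 and 465) were compared with APOA4-high cells that were not trefoil-high (438, 444 and 465), also after the values were seen. Of 9990 genes, 13.9% were higher and 13.8% lower in the trefoil-high cells. Since APOA4-high cells were taken out of one side and make up the other, genes that go with APOA4, APOC3 and FABP2 lean downward by construction, and since trefoil-high cells were taken out of the APOA4-high side, genes that go with TFF1 and TFF2 lean upward in the same way. FCGBP, a mucus gel protein of goblet cells, was at 23.5, 51.7 and 48.3 CPM against 0.794, 1.47 and 0.536 CPM, from 69, 122 and 100 UMIs against 2, 3 and 1. With so few UMIs in the APOA4-high cells, it was tested only through its level in the trefoil-high cells, and no fitted difference is given. TFF3 was higher by 2.10 and the adhesion gene CEACAM6 by 2.46. REG4 had 34, 96 and 65 UMIs against 2, 1 and 10, and the same limit holds for it.

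All 20 tested S phase genes and all 22 mitosis genes were higher than in APOA4-high cells, with medians of 1.63 and 1.38. MKI67, a marker of dividing cells, was at 75.7, 90.2 and 87.0 CPM against 33.7, 28.8 and 20.4 CPM. On the other side, 20 of 21 enterocyte genes were lower (median -1.54). Lipid droplet genes had 1 higher and 12 lower of 22 (median -0.35), hypoxia genes 4 higher and 9 lower of 30 (median -0.14) and glycolysis genes 4 higher and 8 lower of 19 (median -0.15). LCT (difference 0.07, SE 0.31), FABP6 (-0.04, SE 0.34), ANKRD37 (-0.12, SE 0.09) and PLIN2 (-0.05, SE 0.08) did not pass. Neither did CP (0.21, SE 0.14), GUCA2A (-0.22, SE 0.10) or CA12 (0.26, SE 0.15). MUC13, higher against all other Caco-2-side cells, was lower here (-0.95, SE 0.10), and ASNS, lower there, was higher (1.06, SE 0.22).

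Trefoil-high cells outside the GNRH2-high group (459, 439 and 456) were compared in the same way with as many GNRH2-high cells that were not trefoil-high. Here 4.11% of 10052 genes were higher and 3.93% lower. TFF3 was higher by 1.80, and FCGBP had 70, 144 and 33 UMIs against 8, 11 and 2. FABP6, the ileal bile acid binding protein, was at 10.4, 31.8 and 6.36 CPM against 3.37, 3.92 and 1.10 CPM, from 32, 74 and 13 UMIs against 10, 8 and 2, too few on the GNRH2-high side for a fitted difference to be given. APOA2 was higher by 0.96, SLC2A5, the fructose transporter, was lower (-1.0) and SLC2A3 too (-0.78). Of the 22 mitosis genes 16 were higher, and of 30 hypoxia genes 3 were higher and 10 lower. Of 24 enterocyte genes 1 was higher and 8 lower (median -0.07), and of 19 glycolysis genes none was higher and 5 were lower (median -0.10). The lipid droplet list had 2 higher and 1 lower of 22 (median 0.03). The choice of cells makes genes lean here as in the comparison with APOA4-high cells.

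Because S100A9 and CCL20 sat in few cells, those cells were also taken by themselves, after the values were seen: the top 2% of each library on these 2 genes alone, 86, 84 and 85 Caco-2-side cells. Of them 48, 60 and 47 were trefoil-high. Against all other Caco-2-side cells, 2.40% of 13314 genes were higher and 1.31% lower. TFF1, not used in this choice, was at 1154, 1019 and 539 CPM against 432, 314 and 342 CPM, a difference of 1.39 (SE 0.08), and TFF2 was higher by 1.68, mostly through control 1.

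ANKRD37, the hypoxia target, was at 280, 257 and 198 CPM against 106, 89.6 and 91.8 CPM, a difference of 1.45 (SE 0.11, edgeR adjusted p = 1.22e-35). PLIN2 was higher by 0.74. The adhesion receptor CEACAM1 was at 83.6, 61.7 and 58.3 CPM against 17.0, 20.5 and 27.6 CPM, and RASGRP2, an exchange factor for Rap GTPases, at 193, 225 and 187 CPM against 74.5, 77.1 and 69.5 CPM. LGALS1, galectin 1, was higher by 2.14, mostly through control 1, at 89.0, 40.2 and 23.3 CPM against 8.72, 21.1 and 13.6 CPM. PLAUR, the urokinase receptor, was higher by 1.48, mostly through control 2, at 34.5, 93.9 and 29.2 CPM against 15.6, 22.0 and 21.3 CPM. FCER1G was higher by 1.83 and the antiviral OAS1 by 1.46. These rest on few UMIs in the chosen cells: 15, 14 and 15 for FCER1G and 18, 11 and 14 for OAS1. LGALS1 had 49, 15 and 8 UMIs there, and PLAUR 19, 35 and 10. Of 21 NF-kB targets, 5 were higher and none lower (median 0.57), among them CXCL2 (1.02, SE 0.22), IL32 (0.77, SE 0.11) and CXCL1, whose 5, 0 and 4 UMIs carry little weight. NFKBIA (0.56, SE 0.21) and TNFAIP3 (0.40, SE 0.45) did not pass. Of 24 enterocyte genes 4 were higher and 1 lower (median 0.11), and APOA4 (-0.08, SE 0.08) did not pass. Whether these cells differ from the trefoil-high cells in any of these genes was not tested.

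LPS was compared with the controls within the trefoil-high cells. With 1 LPS library the fit has 1 residual degree of freedom and assumes that this library varies as the controls do. Of 11575 genes, 8 passed (0.0691%), 3 higher and 5 lower by edgeR, 527 had an unadjusted p under 0.05, and DESeq2 called none. LCN15, a lipocalin, had 9, 19 and 55 UMIs (2.15, 5.70 and 19.7 CPM), a difference of 2.29 (SE 0.39, edgeR adjusted p = 4.25e-05). CCL15 was at 52.2 and 42.3 CPM in the controls and 20.8 CPM in LPS, a fall of 1.28 (SE 0.25, edgeR adjusted p = 0.00172). The chloride cotransporter SLC12A2 was at 14.6 and 19.2 CPM and then 37.3 CPM. AKR1C1, TM4SF20, SLPI and PAXIP1-AS2 were lower. PAXIP1-AS2 had 34, 28 and 1 UMIs, so it was tested only through its level in the controls. TM4SF20 was at 25.6 and 7.50 CPM in the controls and 5.74 CPM in LPS, and AKR1C1 at 167 and 84.6 CPM and then 70.4 CPM, so that for both the controls differed more from each other than control 2 from LPS.

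The genes that chose the cells were not tested for LPS within them. Over all Caco-2-side cells, CCL20 was at 21.0 and 10.9 CPM in the controls and 9.23 CPM in LPS, S100A9 at 34.0, 22.4 and 20.8 CPM, and TFF1 at 446, 326 and 346 CPM. LPS lay below both controls for CCL20 and S100A9 and between them for TFF1. TLR4, the LPS receptor, had 4, 2 and 0 UMIs in all Caco-2-side cells, and none in the trefoil-high cells. TLR2 had 152, 116 and 106. In the trefoil-high cells CXCL2 was at 49.6 and 28.2 CPM in the controls and 25.8 CPM in LPS, and NFKBIA at 31.1, 32.4 and 29.4 CPM. Neither passed. The difference between the LPS effect in trefoil-high cells and that in the other Caco-2-side cells passed for 5 genes (0.0370% of 13511) by edgeR and for none by DESeq2. They were FGG, SLC12A2, PAXIP1-AS2, MDK and CST1.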

How the data were processed

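The deposited matrices hold counts of UMIs per gene and barcode, made by the authors from 10x 3′ reads aligned to GRCh38 with Cell Ranger, which also chose the barcodes. The matrix headers name Cell Ranger 3.1.0, and the study's key resources another version. The deposited counts are whole numbers with no normalization. Members and gene lists were chosen with earlier results of these data known. Counts were summed per library and group and tested with edgeR 4.0.16 in R 4.3.3 (quasi-likelihood, TMM, filterByExpr, Benjamini-Hochberg threshold 0.05, library as a block, the 12 genes of the rule left out of tests and totals). CPM uses all UMIs. DESeq2 1.42.0 was the other tool. Scrublet in scanpy 1.11.5 (Python 3.11.15) marked 0, 0 and 1 doublets, too few for the caller to have worked, and its calls were not used. The 6% with the highest scores were left out in an alternative. Scripts were tested on simulated data. The genes named are the 4 of the rule, ANKRD37, PLIN2, members of the lists, and the 12 largest changes in each direction among those past the threshold, with a mean of 20 CPM or more in the higher group and of 1 sign in all 3 libraries. A few others were named after their values were seen, and 1 gene of the rule's largest rises is not reported here. SOD2, listed under 2 gene IDs, was not used. Of the lists, 24 are pathways, families or markers of cell states, such as the enterocyte, crypt and YAP lists. The other 4 hold markers of other cells, many of which the study picked from these libraries, so they are not independent evidence. All 28 lists were chosen with earlier results known, so the 24 are not independent evidence either. Intervals are exact binomial. Alternatives varied the share chosen, the limits, doublets, depth, scaling, filter, tool, block and libraries.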

Additional observations from a re-analysis of the deposited data

Results flagged for a closer look

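The LPS effect differed between trefoil-high and other Caco-2-side cells for 5 of 13511 genes (0.0370%) by the interaction term of edgeR, and for none by DESeq2. At an unadjusted p under 0.05 edgeR gave 687 genes and DESeq2 14. The differences below are on the log2 scale, LPS effect in trefoil-high minus that in the other cells, and the single LPS library carries each. SLC12A2 differed by 0.93 (SE 0.21, edgeR adjusted p = 0.0439), with 14.6, 19.2 and 37.3 CPM in trefoil-high and 43.7, 39.5 and 47.7 CPM in the other cells. FGG, a fibrinogen chain, differed by 0.86 (SE 0.20), with 24.9, 32.1 and 31.2 CPM and 124, 113 and 70.6 CPM, so that the fall lay in the other cells. MDK, the growth factor midkine, differed by 0.50 (SE 0.11), with 80.7, 167 and 151 CPM and 387, 485 and 380.0 CPM, and in trefoil-high cells the controls were further apart than LPS and control 2. CST1 differed by 2.29 (SE 0.51) on 6, 19 and 24 UMIs in trefoil-high cells (1.44, 5.70 and 8.62 CPM), where the controls were again further apart than LPS and control 2. PAXIP1-AS2, an antisense RNA, had 34, 28 and 1 UMIs in trefoil-high cells and 113, 147 and 124 in the other cells. Its fitted difference was -4.89. With 1 UMI in the LPS trefoil-high cells, it was tested there only through its level in the controls, so the size of that difference is not known.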

How the results depend on the processing

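The count of genes called between trefoil-high and other Caco-2-side cells, 4145, moved beyond 1.5 times with cells thinned to 1500 UMIs (1778, of 11319 tested), DESeq2 (2028), no library block (1911) and, chosen after seeing the data, the top 2% on S100A9 and CCL20 alone (503, from fewer cells). Of the 4145 calls 1658, 2028, 1911 and 432 held in these. It lay between 3043 and 3634 with 1 library left out. Without a scaling factor 28.8% of calls were higher instead of 57.2%, and without the low-count filter 49.1%. With no scaling factor 3 calls turned over, at a limit of 0.2% 1 did, and in the top 2% on S100A9 and CCL20 5 did. The left-out differences kept their direction and passed in every alternative run: without 1 library they ranged from 1.98 to 2.31 for S100A9, 0.88 to 1.52 for CCL20, 2.45 to 2.58 for TFF1 and 3.14 to 3.24 for TFF2. The LPS count of 8 became 0 with DESeq2, 4 without the filter and 3 with RLE size factors, and the count of differing LPS effects of 5 became 0, 2 and 1. The cause was not tested. For 25 named genes, 515 of 525 repeats kept direction and call, 9 missed the threshold and 1 turned over, TNFSF10 (-0.42) in the top 2% on S100A9 and CCL20. PRSS2 missed it with DESeq2 (-1.71, adjusted p = 0.128). Leaving out a library was not possible for LPS, since no residual degrees of freedom remain. No paired analysis was possible because the control and LPS groups share 1 replicate number only. Depth limits shares of cells: thinned to 1500 UMIs, S100A9 was detected in 5.29% of the trefoil-high cells of control 1 and CCL20 in 8.24%, against 13.1% and 18.2% unthinned.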
